A study of Homo sapiens with 6 samples.

Results

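The genes described here are 57 genes of cell division: the mitotic cyclins and their kinase CDK1, the Aurora, Polo-like and checkpoint kinases, the subunits of the kinetochore, the machinery of spindle assembly, anaphase and cytokinesis, condensin, the proliferation marker MKI67 and the transcription factor FOXM1. They were chosen by gene symbol from a list of these functions, with earlier results of these data known. All 57 symbols were found among the 16832 genes listed in each library. The study sequenced RNA of U251 cells, an established human glioma line of genotype WT. SLCDS combines small molecules, and its components are not named in the labels. The SLCDS group holds 3 libraries of cells kept with it for 18 days. The control group holds 3 libraries of cells given PBS, with no time stated. The title of the series calls the cells that result neuronal-like. No label says whether the 3 libraries of a group came from separate cultures, so the p-values measure only the spread between these libraries, which may be technical.

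Cyclins A and B switch on CDK1, which drives a cell into mitosis once the CDC25 phosphatases have removed its inhibitory phosphates. The kinetochore, built on centromeric nucleosomes that carry the histone variant CENP-A, ties each chromosome to the spindle, and the spindle checkpoint holds back the ubiquitin ligase APC/C and its activator CDC20 until every chromosome is attached. Most of these genes are transcribed mainly in G2 and mitosis and are held silent in resting cells by the DREAM complex, which sits on promoters through the cell cycle genes homology region (CHR). In G2, B-MYB and FOXM1 bind the same promoters through the MuvB core and activate them, and many of these promoters also hold CCAAT boxes, to which NF-Y binds.

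Because this mode of control is described for most of these genes, the promoters of the members are shown first. A window of 250 bases before to 50 bases after an annotated start was available for 47 of the 57 genes from RefSeq (GRCh38.p14), with 62 windows in all. The CHR was searched as TTTGAA or TTTAAA and the CCAAT box as CCAAT, each on both strands. A CHR match was found in 66.1% of the 62 windows, against 24% of the 35116 windows of all genes. CCAAT was found in 71% of the 62 windows, against 34.6% of all windows. Both were found in 48.4% of the 62 windows, against 9.27% of all windows. The separation was wider close to the start: 59.7% of the 62 windows held a CHR match no more than 100 bases before it or after it, against 11.2% of all windows. At least 2 CCAAT matches were present in 40.3% of the 62 windows, against 10.8% of all windows. The 5 windows below were picked after the values were seen. CCNB2, CDC20 and MKI67 rose in SLCDS cells and hold several matches, PLK1 holds 3 CHR matches but did not pass the test, and CENPI holds no match and did not pass either. Capitals mark the CHR and CCAAT matches, and each is written 5′ to 3′ on the strand of its gene.
CCNB2 (chr15:59104896-59105195, plus strand, 2 CHR and 4 CCAAT matches): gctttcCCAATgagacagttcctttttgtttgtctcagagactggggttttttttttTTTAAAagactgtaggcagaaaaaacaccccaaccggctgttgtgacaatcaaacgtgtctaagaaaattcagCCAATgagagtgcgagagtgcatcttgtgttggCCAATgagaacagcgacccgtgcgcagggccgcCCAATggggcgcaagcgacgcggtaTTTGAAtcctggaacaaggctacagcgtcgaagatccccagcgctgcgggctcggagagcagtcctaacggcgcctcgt
CDC20 (chr1:43358731-43359030, plus strand, 2 CHR and 2 CCAAT matches): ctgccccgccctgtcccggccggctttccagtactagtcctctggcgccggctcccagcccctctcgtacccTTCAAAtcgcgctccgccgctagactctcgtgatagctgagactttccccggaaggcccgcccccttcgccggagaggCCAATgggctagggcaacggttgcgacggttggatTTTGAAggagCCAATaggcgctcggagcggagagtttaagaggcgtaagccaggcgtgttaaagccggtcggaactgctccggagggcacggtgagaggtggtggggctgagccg
MKI67 (chr10:128126374-128126673, minus strand, 2 CHR and 2 CCAAT matches): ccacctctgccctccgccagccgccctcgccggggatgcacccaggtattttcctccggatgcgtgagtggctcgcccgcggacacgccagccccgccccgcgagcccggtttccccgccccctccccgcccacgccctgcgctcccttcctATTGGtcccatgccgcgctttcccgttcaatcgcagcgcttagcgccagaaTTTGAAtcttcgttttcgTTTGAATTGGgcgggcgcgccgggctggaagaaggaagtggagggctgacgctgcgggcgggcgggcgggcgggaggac
PLK1 (chr16:23678639-23678938, plus strand, 3 CHR and 1 CCAAT matches): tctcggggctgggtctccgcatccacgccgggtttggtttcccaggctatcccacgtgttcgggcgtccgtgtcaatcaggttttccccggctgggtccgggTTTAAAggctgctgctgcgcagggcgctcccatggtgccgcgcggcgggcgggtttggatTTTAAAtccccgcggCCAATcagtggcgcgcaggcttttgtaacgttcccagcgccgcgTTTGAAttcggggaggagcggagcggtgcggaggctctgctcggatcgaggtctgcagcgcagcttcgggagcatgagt
CENPI (chrX:101100808-101101107, plus strand, 0 CHR and 0 CCAAT matches): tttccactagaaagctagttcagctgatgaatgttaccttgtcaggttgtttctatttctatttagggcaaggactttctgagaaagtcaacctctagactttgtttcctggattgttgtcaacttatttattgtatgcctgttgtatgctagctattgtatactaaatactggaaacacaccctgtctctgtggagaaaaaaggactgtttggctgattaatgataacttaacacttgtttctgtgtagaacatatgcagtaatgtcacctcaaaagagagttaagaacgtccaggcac
In the MKI67 window the second CHR match overlaps a CCAAT match. Over genes, 17 of the 22 members that passed the test and had a window held a CHR match (77.3%), against 19 of the 25 with a window that did not pass or were not tested (76%). A match is a string of letters and not a bound site.

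The values are FPKM, fragments scaled to transcript length and to library size, as the authors deposited them. From the steps between low values, each library was estimated to hold 16300000 to 17200000 fragments, so that 1 FPKM of a 2000-nucleotide transcript amounts to 32.6 to 34.4 fragments. The 11506 genes that reached 1 FPKM in at least 3 libraries were tested with limma on log2(FPKM + 1). At a Benjamini-Hochberg adjusted p under 0.05, 492 genes were higher in SLCDS cells and 209 were lower. Fold changes are SLCDS over control on that scale, and for genes of low FPKM the scale understates the difference. Control replicate 3 stood apart: its values correlated at 0.9765 and 0.9767 (Pearson, log2 scale, over genes) with the other controls, against 0.9969 between those and 0.9966 to 0.997 among the SLCDS libraries. Results that rest on it are given with and without it. All 7 astroglial and glioma markers had a mean FPKM of at least 1, and summed to 2399 to 2483 FPKM in SLCDS libraries, against 2436 to 2874 FPKM in controls. VIM made up most of that sum. GFAP had 127.2, 141.4 and 137.3 FPKM in the SLCDS libraries, against 353.9, 311.7 and 350.1 FPKM in the controls. SOX2 and FABP7 also lay lower in every SLCDS library than in any control. NES and CD44 lay higher in every SLCDS library than in any control, and VIM and S100B overlapped. Of 7 neuronal markers, 3 reached that level, and the 7 summed to 74.6 to 76.9 FPKM in SLCDS libraries, against 82.3 to 89.1 FPKM in controls. TUBB3 was lower in every SLCDS library than in any control. SYN1 and SYP, of low FPKM, were higher in every SLCDS library, and the other neuronal markers overlapped. PTPRC, AIF1 and CX3CR1, which mark immune cells, and PECAM1, VWF and TEK, which mark endothelium, each had a mean under 0.1 FPKM over the 6 libraries. The other immune markers, CD14 and CSF1R, averaged 0.881 and 0.211 FPKM in SLCDS cells, against 1.19 and 0.275 FPKM in controls. The 5 endothelial markers summed to 4.93 to 5.88 FPKM in SLCDS libraries, against 2.12 to 3.00 FPKM in controls. CDH5 alone carried that difference, with a mean of 4.81 FPKM in SLCDS cells and 1.91 FPKM in controls, and KDR went the other way, with 0.383 FPKM in SLCDS cells and 0.502 FPKM in controls. The part of these marker differences in the results was not tested. In bulk RNA, a larger share of dividing cells and more of these transcripts per dividing cell cannot be told apart.

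Of the 57 genes, 55 passed the filter. In limma, 27 of these (49.1%) were higher in SLCDS cells, where the background was 4.28% of all tested genes, and 28 did not pass. None was lower, where the background was 1.82%, and none was lower at an unadjusted p under 0.05 either, against 42 higher at that level. The share of all tested genes at that unadjusted level was not counted. The median log2 fold change of the 55 was 0.44, against 0.00 over all tested genes. CDC25B was the only tested member with a negative fold change (-0.07), although under quantile normalization CENPE was negative too (-0.05). Summed over the 57 genes, FPKM was 426, 408.9 and 411.5 in the SLCDS libraries, against 314.1, 305.3 and 299.6 in the controls. The groups did not overlap for 45 of the 57 genes (78.9%), each higher in every SLCDS library than in any control, where the background was 15.5% of tested genes. For the other 12 they overlapped. The ratio of mean FPKM in SLCDS to control cells ran between 0.953 for CDC25B and 3.28 for CDC25C with a median of 1.6. It was at least 2 for 12 genes and at least 1.5 for 32. Without control replicate 3, 42 of the 55 were higher, where the background was 16%, and the 27 were all among them.

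**Figure D1:**
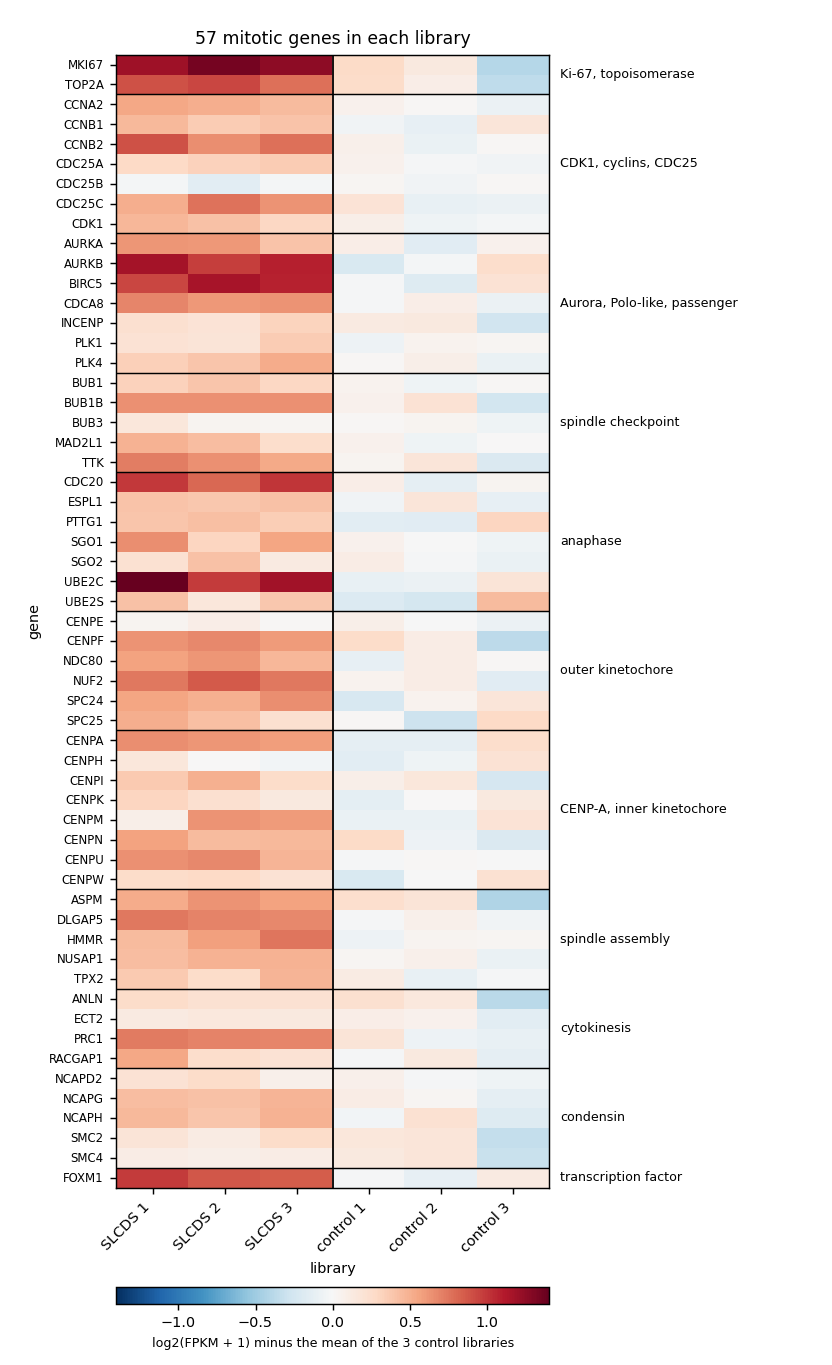
Heat map of the 57 genes (vertical axis, by role) in each library (horizontal axis), coloured by log2(FPKM + 1) minus the mean of the 3 control libraries. MKI67, AURKB, BIRC5, UBE2C, CDC20 and FOXM1 are among the darkest in all 3 SLCDS libraries, and control 3 is bluer or redder than controls 1 and 2 for many genes.

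Leaving out 1 library at a time divided the 27. MKI67, CCNB2, AURKB, BIRC5, CDCA8, CDC20, UBE2C, NUF2, CENPU, DLGAP5, PRC1 and FOXM1 remained higher in all 6 sets, whereas the other 15 lost the call in at least 1. HMMR and DLGAP5 passed the filter through their SLCDS libraries, since no control library reached an FPKM of 1, and counts over tested genes are read with that in mind.

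MKI67 and TOP2A both rose. MKI67 encodes Ki-67, which coats mitotic chromosomes and is the standard histological marker of proliferating cells. It had 6.32, 7.14 and 6.65 FPKM in the SLCDS libraries, against 2.86, 2.52 and 1.43 FPKM in the controls. Each SLCDS library was more than 2-fold above the highest control, and control 3 was the lowest. With all 6 libraries the fold change of MKI67 was the largest among the tested members (log2 fold change 1.26, SE 0.17, adjusted p = 0.00593). Without control 3 it was 1.06 (adjusted p = 7.56e-06), below UBE2C (1.28), AURKB (1.20) and BIRC5 (1.16). TOP2A encodes topoisomerase II alpha, which untangles sister DNA. It had 16.3, 16.9 and 14.9 FPKM in the SLCDS libraries, against 10.2, 8.98 and 6.29 FPKM in the controls. Again the groups did not overlap and control 3 was the lowest (log2 fold change 0.87, SE 0.16, adjusted p = 0.0207). TOP2A did not pass when any SLCDS library or control 2 was left out, with an adjusted p of up to 0.107.

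Of CDK1, its cyclins and the CDC25 phosphatases, 4 of the 6 tested members rose. CDK1 had 15.1, 14.5 and 13.3 FPKM in the SLCDS libraries, against 11.3, 10.2 and 10.47 FPKM in the controls. All SLCDS values lay above all controls by a modest margin (log2 fold change 0.39, SE 0.08, adjusted p = 0.0325). CCNB1 encodes cyclin B1, the main partner of CDK1 at mitotic entry. It had 12.9, 12 and 12.4 FPKM in the SLCDS libraries, against 8.77, 8.36 and 10.4 FPKM in the controls. Control 3 was the highest control for CCNB1 and lay nearest to the SLCDS libraries (log2 fold change 0.40, SE 0.09, adjusted p = 0.0495). CCNB2 encodes cyclin B2. It had 7.43, 6.17 and 6.77 FPKM in the SLCDS libraries, against 3.79, 3.26 and 3.61 FPKM in the controls. Its SLCDS values lay well above its controls, which stayed close together (log2 fold change 0.77, SE 0.09, adjusted p = 0.00365). CCNA2, cyclin A2, averaged 4.78 ± 0.189 FPKM in SLCDS cells and 3.10 ± 0.206 FPKM in controls (SD, n = 3 each), with an adjusted p of 0.0115. The calls of CDK1 and CCNB1 were lost when any library other than control 3 was left out (adjusted p up to 0.182 and 0.226), and that of CCNA2 when any SLCDS library was (up to 0.0798).

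None of the CDC25 phosphatases, CDC25A, CDC25B and CDC25C, passed in this fit. CDC25A had 2.45, 2.56 and 2.65 FPKM in the SLCDS libraries, against 1.97, 1.82 and 1.74 FPKM in the controls. No control reached the SLCDS values of CDC25A, but the adjusted p of 0.0507 missed the threshold, and without control 3 it was 0.0164. CDC25B had 27.7, 25.4 and 27.8 FPKM in the SLCDS libraries, against 28.8, 27.4 and 28.7 FPKM in the controls. CDC25B, which starts CDK1 activation at the centrosome, overlapped between the groups (log2 fold change -0.07, SE 0.07, adjusted p = 0.675). CDC25C, the phosphatase that keeps CDK1 active in mitosis, was under the filter and not tested. It had 0.873, 1.22 and 1.03 FPKM in the SLCDS libraries, against 0.497, 0.218 and 0.239 FPKM in the controls. Every SLCDS library was above every control for CDC25C, on about 8 to 43 fragments per library. In the fit with no filter CDC25C was higher with an adjusted p of 0.0218, where the background was 3.71% of 16832 genes higher and 1.24% lower.

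**Figure D2:**
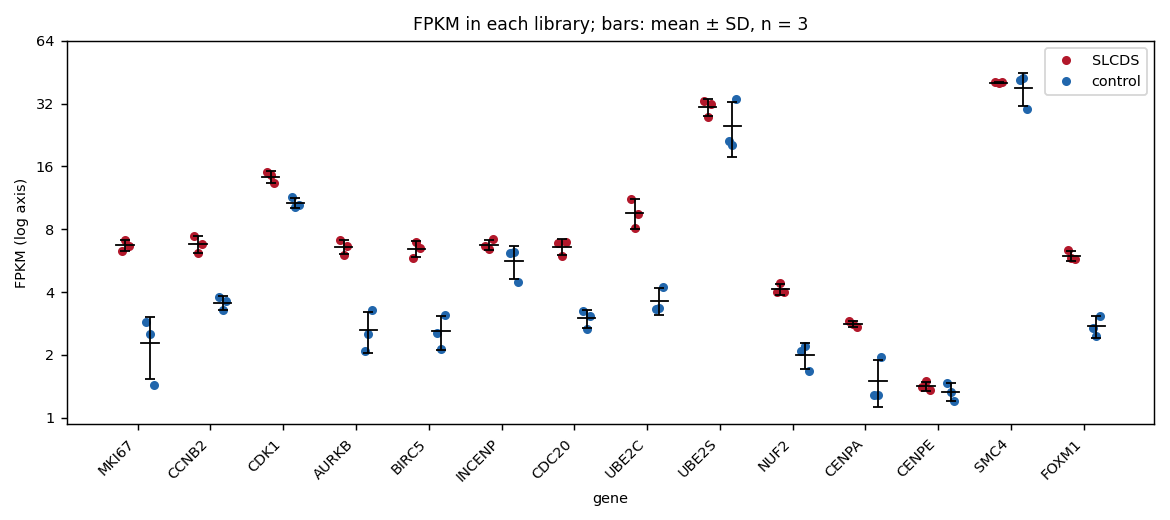
FPKM (vertical log axis) of 14 genes in each SLCDS and control library, with horizontal bars for the mean and whiskers for the SD (n = 3 each). MKI67, AURKB, BIRC5, CDC20, UBE2C and FOXM1 separate widely, whereas CENPE, SMC4 and UBE2S overlap and the lowest INCENP and SMC4 value is control 3.

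Among the Aurora and Polo-like kinases and the chromosomal passenger complex, 5 of 7 members rose. AURKA, the kinase of centrosome maturation and spindle poles, rose by 0.54 on the log2 scale (SE 0.10, adjusted p = 0.0266). AURKA had 4.98, 4.95 and 4.14 FPKM in the SLCDS libraries, against 3.17, 2.5 and 3.08 FPKM in the controls. AURKA did not overlap between the groups, but the call was lost when any library other than control 3 was left out (adjusted p up to 0.142). AURKB is the kinase of the passenger complex, which corrects faulty attachments at the centromere. It had 7.07, 6.03 and 6.65 FPKM in the SLCDS libraries, against 2.098, 2.52 and 3.27 FPKM in the controls. BIRC5 encodes survivin, which brings the complex to the centromere. It had 5.85, 6.95 and 6.52 FPKM in the SLCDS libraries, against 2.53, 2.14 and 3.101 FPKM in the controls. CDCA8 encodes borealin, another targeting subunit. It had 2.95, 2.73 and 2.79 FPKM in the SLCDS libraries, against 1.43, 1.62 and 1.32 FPKM in the controls. For these 3 genes every SLCDS library lay far above every control. The fold changes were 1.07 for AURKB (SE 0.13, adjusted p = 0.00366), 1.06 for BIRC5 (SE 0.12, adjusted p = 0.00269) and 0.64 for CDCA8 (SE 0.08, adjusted p = 0.00423), all on the log2 scale.

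INCENP is the scaffold on which the other passenger subunits assemble. INCENP had 6.63, 6.46 and 7.14 FPKM in the SLCDS libraries, against 6.15, 6.23 and 4.44 FPKM in the controls. Control 3 alone was far below the rest, and the difference did not pass (log2 fold change 0.24, SE 0.12, adjusted p = 0.363), nor without control 3 (adjusted p = 0.248). PLK1 is the Polo-like kinase of mitotic entry, spindle assembly and cytokinesis. It had 4.38, 4.28 and 4.96 FPKM in the SLCDS libraries, against 3.44, 3.81 and 3.74 FPKM in the controls. The SLCDS libraries were all higher, but by less than the test required (log2 fold change 0.25, SE 0.08, adjusted p = 0.164); without control 3 it passed with an adjusted p of 0.0348. PLK4, the kinase of centriole duplication, averaged 1.80 ± 0.193 FPKM in SLCDS cells and 1.10 ± 0.125 FPKM in controls (SD, n = 3 each). Its adjusted p of 0.0372 was lost when any library other than control 3 was left out (up to 0.159).

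Ratios of subunits within a library do not depend on how the library was scaled. The trend of control 3 with transcript length, described below, does enter them (AURKB 1254 and INCENP 3964 nucleotides). The ratio of AURKB to INCENP was 1.07, 0.933 and 0.931 in the SLCDS libraries, against 0.341, 0.405 and 0.735 in the controls. The ratio of BIRC5 to INCENP was 0.881, 1.08 and 0.914 in the SLCDS libraries, against 0.412, 0.344 and 0.698 in the controls. Thus FPKM of AURKB and BIRC5 came close to that of INCENP in SLCDS cells, while in controls it lay below, least so in control 3. Of 11 such ratios, chosen after the values were seen, 10 did not overlap between the groups. Each of the 10 gave p = 0.1 in a 2-sided exact permutation test (0.11 after Benjamini-Hochberg adjustment over the 11). That is the smallest p that 3 against 3 libraries allow. In each pair the numerator was the member with the larger fold change, so the choice favoured separation. These p-values are therefore a description and lend no weight. The ratio of CCNB1 to CDK1 overlapped (exact permutation p = 0.8).

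Of the 5 spindle checkpoint genes, 3 rose: BUB1, BUB1B and TTK. TTK encodes MPS1, the kinase at the head of checkpoint signalling. BUB1B encodes the checkpoint inhibitor BUBR1. It had 2.9, 2.91 and 2.89 FPKM in the SLCDS libraries, against 1.61, 1.88 and 1.09 FPKM in the controls. Its SLCDS values were nearly equal and above all controls, of which control 3 was the lowest (log2 fold change 0.64, SE 0.12, adjusted p = 0.025). TTK averaged 2.80 ± 0.244 FPKM in SLCDS cells and 1.46 ± 0.312 FPKM in controls (SD, n = 3 each), with an adjusted p of 0.0196. BUB1, the kinase that docks checkpoint proteins at the kinetochore, averaged 3.69 ± 0.165 FPKM in SLCDS cells and 2.73 ± 0.147 FPKM in controls (SD, n = 3 each), with an adjusted p of 0.0481. BUB1 lost the call when any single library other than control 3 was left out (adjusted p up to 0.228). BUB1B and TTK lost it when any single SLCDS library or control 1 was left out (up to 0.118 and 0.106).

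MAD2L1 and BUB3 did not pass. MAD2L1 encodes MAD2, which captures CDC20. It had 5.99, 5.75 and 4.94 FPKM in the SLCDS libraries, against 4.204, 3.799 and 4.03 FPKM in the controls. Every SLCDS library exceeded every control for MAD2L1 (log2 fold change 0.39, SE 0.09, adjusted p = 0.0512), and without control 3 the adjusted p was 0.00701. BUB3, the adaptor that BUB1 and BUBR1 share, was the most abundant gene of the checkpoint in every library. It had 19.8, 18.2 and 18.02 FPKM in the SLCDS libraries, against 17.8, 18.2 and 16.9 FPKM in the controls. The groups overlapped for BUB3 (log2 fold change 0.08, SE 0.07, adjusted p = 0.648). The ratio of BUB1B to BUB3 was 0.146, 0.16 and 0.16 in the SLCDS libraries, against 0.0901, 0.103 and 0.0647 in the controls.

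Among the anaphase genes, CDC20 and UBE2C rose out of 6 tested. CDC20 activates the APC/C at the onset of anaphase. It had 6.88, 5.93 and 6.96 FPKM in the SLCDS libraries, against 3.24, 2.65 and 3.08 FPKM in the controls. UBE2C is the ubiquitin-conjugating enzyme that starts chains on APC/C substrates. It had 11.2, 8.09 and 9.42 FPKM in the SLCDS libraries, against 3.31, 3.37 and 4.24 FPKM in the controls. For both, every SLCDS library lay well above every control. The log2 fold change was 0.93 for CDC20 (SE 0.10, adjusted p = 0.00206) and 1.18 for UBE2C (SE 0.13, adjusted p = 0.00278).

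UBE2S, the enzyme that extends those chains, did not pass. UBE2S had 32.7, 27.4 and 31.9 FPKM in the SLCDS libraries, against 21.2, 20.4 and 33.6 FPKM in the controls. The SLCDS libraries were above controls 1 and 2, but control 3 was the highest of all 6 (log2 fold change 0.31, SE 0.19, adjusted p = 0.442). Without control 3 the fold change of UBE2S was 0.54 (adjusted p = 0.000385). PTTG1 encodes securin, which inhibits separase until anaphase. It had 14.9, 15.3 and 14.5 FPKM in the SLCDS libraries, against 10.04, 9.93 and 14.1 FPKM in the controls. Control 3 lay just under the SLCDS libraries (log2 fold change 0.38, SE 0.13, adjusted p = 0.17), and without it the fold change was 0.54 (adjusted p = 4.38e-05). ESPL1 encodes separase, the protease that opens cohesin. It had 1.43, 1.404 and 1.47 FPKM in the SLCDS libraries, against 0.785, 1.08 and 0.703 FPKM in the controls. The groups did not overlap, and the adjusted p of 0.0562 missed the threshold. ESPL1 passed without control 3 (adjusted p = 0.0232) and also without control 2.

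The shugoshins, which protect centromeric cohesin, were among the least abundant members. SGO1 had 1.21, 0.738 and 1.06 FPKM in the SLCDS libraries, against 0.476, 0.402 and 0.355 FPKM in the controls. SGO1 was under the filter and not tested, although every SLCDS library was above every control. In the fit with no filter it was higher with an adjusted p of 0.0373. SGO2 had 1.35, 1.69 and 1.204 FPKM in the SLCDS libraries, against 1.18, 1.003 and 0.905 FPKM in the controls. Of the SLCDS libraries of SGO2, replicate 3 was barely above control 1 and the others lay further above it (log2 fold change 0.25, SE 0.10, adjusted p = 0.245), and it did not pass without control 3 either (adjusted p = 0.173).

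Of the 6 outer kinetochore genes, 3 rose, all of them subunits of the NDC80 complex, which grips the microtubule. NUF2 had the largest fold change of them. It had 3.99, 4.42 and 3.99 FPKM in the SLCDS libraries, against 2.09, 2.21 and 1.68 FPKM in the controls. NDC80 had 4.78, 4.97 and 4.38 FPKM in the SLCDS libraries, against 2.598, 3.18 and 2.94 FPKM in the controls. SPC24 had 2.25, 2.12 and 2.46 FPKM in the SLCDS libraries, against 0.894, 1.28 and 1.49 FPKM in the controls. For each of these 3 genes the lowest SLCDS library was above the highest control. The log2 fold changes were 0.78 for NUF2 (SE 0.09, adjusted p = 0.00385), 0.55 for NDC80 (SE 0.09, adjusted p = 0.0135) and 0.57 for SPC24 (SE 0.11, adjusted p = 0.0307). NDC80 lost the call when any SLCDS library was left out (adjusted p up to 0.085), and SPC24 when any library other than control 3 was (up to 0.147).

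SPC25, the fourth subunit, did not pass. SPC25 had 1.68, 1.53 and 1.204 FPKM in the SLCDS libraries, against 0.906, 0.544 and 1.29 FPKM in the controls. Control 3 was above SLCDS replicate 3, on about 12 to 38 fragments per library (log2 fold change 0.38, SE 0.15, adjusted p = 0.234). Without control 3 its adjusted p was 0.00922. CENPE is a kinesin that carries chromosomes to the spindle equator. It had 1.399, 1.49 and 1.35 FPKM in the SLCDS libraries, against 1.47, 1.32 and 1.201 FPKM in the controls. The groups overlapped (log2 fold change 0.05, SE 0.08, adjusted p = 0.796). CENPF is a large coiled-coil protein of the outer kinetochore. It had 7.77, 8.08 and 7.62 FPKM in the SLCDS libraries, against 5.82, 5.101 and 3.41 FPKM in the controls. The groups did not overlap, and control 3 was far below the other controls (log2 fold change 0.63, SE 0.16, adjusted p = 0.0639). Without control 3 the fold change of CENPF was 0.45 (adjusted p = 0.000911), and it also passed without control 1 (adjusted p = 0.047).

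At the centromere, CENPA and CENPU rose among 8 genes. CENPA encodes the centromeric histone H3 variant itself. It had 2.91, 2.83 and 2.73 FPKM in the SLCDS libraries, against 1.28, 1.28 and 1.95 FPKM in the controls. The SLCDS values were tight and above all controls, of which control 3 was the highest (log2 fold change 0.62, SE 0.12, adjusted p = 0.0235). The call of CENPA was lost when any library other than control 3 was left out (adjusted p up to 0.119). CENPU belongs to the inner kinetochore complex and recruits PLK1. It had 2.201, 2.28 and 1.87 FPKM in the SLCDS libraries, against 1.04, 1.09 and 1.05 FPKM in the controls. The SLCDS values were about 2-fold above the controls without overlap (log2 fold change 0.59, SE 0.08, adjusted p = 0.00611).

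The other 6 inner kinetochore genes did not pass. CENPH had 8.65, 7.67 and 7.44 FPKM in the SLCDS libraries, against 6.84, 7.31 and 8.97 FPKM in the controls. CENPI had 1.66, 1.92 and 1.47 FPKM in the SLCDS libraries, against 1.18, 1.296 and 0.754 FPKM in the controls. CENPK had 1.95, 1.79 and 1.62 FPKM in the SLCDS libraries, against 1.17, 1.39 and 1.63 FPKM in the controls. CENPH and CENPK overlapped between the groups, with control 3 the highest control for both, whereas CENPI did not overlap and had control 3 lowest. CENPM had 1.47, 2.59 and 2.53 FPKM in the SLCDS libraries, against 1.18, 1.18 and 1.66 FPKM in the controls. CENPN had 3.42, 3.06 and 3.09 FPKM in the SLCDS libraries, against 2.62, 1.84 and 1.61 FPKM in the controls. CENPW had 2.95, 3 and 2.799 FPKM in the SLCDS libraries, against 1.85, 2.303 and 2.83 FPKM in the controls. CENPN, which reads CENP-A nucleosomes, did not overlap, while control 3 lay above the lowest SLCDS library for CENPM and CENPW. Adjusted p-values were 0.888 for CENPH, 0.151 for CENPI, 0.286 for CENPK, 0.206 for CENPM, 0.0823 for CENPN and 0.322 for CENPW. Without control 3, CENPK (0.0373), CENPM (0.0221), CENPN (0.0207) and CENPW (0.0123) passed. CENPN also passed without control 1, and CENPH and CENPI did not pass whichever library was left out.

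Among the spindle assembly genes, DLGAP5, HMMR and NUSAP1 rose. DLGAP5 encodes HURP, which stabilises kinetochore fibres. It had 2.16, 2.06 and 2.01 FPKM in the SLCDS libraries, against 0.861, 0.975 and 0.828 FPKM in the controls. HMMR encodes the hyaluronan receptor RHAMM, which also sits at spindle poles. It had 1.54, 1.78 and 2.12 FPKM in the SLCDS libraries, against 0.773, 0.917 and 0.899 FPKM in the controls. For both, every SLCDS library was above an FPKM of 1.5 and every control under 1. The fold changes were 0.70 for DLGAP5 (SE 0.07, adjusted p = 0.00214) and 0.59 for HMMR (SE 0.10, adjusted p = 0.0142). NUSAP1, which bundles spindle microtubules, averaged 11.4 ± 0.261 FPKM in SLCDS cells and 7.96 ± 0.546 FPKM in controls (SD, n = 3 each). Its adjusted p was 0.014. NUSAP1 lost the call when any single SLCDS library was left out (up to 0.0911), and HMMR without SLCDS 2, SLCDS 3 or control 1 (up to 0.0768).

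TPX2 and ASPM did not overlap between the groups but missed the threshold. TPX2 activates Aurora A on the spindle. It had 10.97, 10.1 and 11.9 FPKM in the SLCDS libraries, against 9.04, 7.66 and 8.19 FPKM in the controls. ASPM holds microtubule ends at the spindle poles and is mutated in primary microcephaly. It had 2.98, 3.302 and 3.12 FPKM in the SLCDS libraries, against 2.28, 2.16 and 1.07 FPKM in the controls. For ASPM, control 3 lay at about 1 and the other controls above 2 FPKM. The fold change was 0.37 for TPX2 (SE 0.09, adjusted p = 0.0674) and 0.57 for ASPM (SE 0.17, adjusted p = 0.127). Without control 3 the adjusted p was 0.00908 for TPX2 and 0.00574 for ASPM, whose fold change then was 0.36.

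Of the 4 cytokinesis genes, only PRC1 passed. PRC1 crosslinks the antiparallel microtubules of the central spindle. It had 15.5, 15.1 and 14.9 FPKM in the SLCDS libraries, against 10.3, 8.44 and 8.22 FPKM in the controls. The SLCDS values were close to each other and above all controls (log2 fold change 0.70, SE 0.09, adjusted p = 0.00582). ECT2 is the exchange factor that activates RhoA at the cell equator. It had 13.8, 14.04 and 13.97 FPKM in the SLCDS libraries, against 13.4, 13.1 and 11.3 FPKM in the controls. ANLN encodes anillin, the scaffold of the contractile ring. It had 8.82, 8.55 and 8.59 FPKM in the SLCDS libraries, against 8.63, 8.13 and 5.36 FPKM in the controls. For both, controls 1 and 2 came close to the SLCDS libraries and control 3 was lowest. RACGAP1 is the subunit of centralspindlin that docks ECT2. It had 7.96, 6.304 and 6.05 FPKM in the SLCDS libraries, against 5.1, 5.76 and 4.63 FPKM in the controls. SLCDS replicate 1 was the highest for RACGAP1 and the other SLCDS libraries were just above control 2. Adjusted p-values were 0.448 for ECT2, 0.509 for ANLN and 0.19 for RACGAP1, and none of these passed without control 3 (0.349, 0.63 and 0.0775 in that order).

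Condensin, which compacts chromosomes, had the lowest median log2 fold change of all the roles, 0.18 over 5 subunits. NCAPG was the only subunit that passed. It had 5.63, 5.52 and 5.83 FPKM in the SLCDS libraries, against 4.27, 3.99 and 3.51 FPKM in the controls. All SLCDS values of NCAPG were above all controls (log2 fold change 0.44, SE 0.08, adjusted p = 0.0263), and the call was lost when any single SLCDS library or control 2 was left out (adjusted p up to 0.141). NCAPH had 2.28, 2.14 and 2.36 FPKM in the SLCDS libraries, against 1.34, 1.79 and 1.12 FPKM in the controls. NCAPD2 had 12.6, 13.1 and 11.39 FPKM in the SLCDS libraries, against 11.37, 10.7 and 10.3 FPKM in the controls. These non-SMC subunits did not overlap between the groups either, but missed the threshold, with an adjusted p of 0.0689 for NCAPH and 0.301 for NCAPD2. Without control 3, NCAPH passed (adjusted p = 0.0185), as it did without control 2.

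The ATPase subunits of condensin, SMC2 and SMC4, overlapped between the groups. SMC2 had 4.08, 3.85 and 4.33 FPKM in the SLCDS libraries, against 4.01, 4.03 and 2.56 FPKM in the controls. SMC4 had 40.6, 39.96 and 40.4 FPKM in the SLCDS libraries, against 41.3, 42.5 and 30.2 FPKM in the controls. Controls 1 and 2 matched or exceeded the SLCDS libraries for SMC4, and control 3 was the lowest library for both genes. The log2 fold change was 0.18 for SMC2 (95% confidence interval -0.15 to 0.52, adjusted p = 0.578) and 0.10 for SMC4 (95% confidence interval -0.21 to 0.40, adjusted p = 0.756). Without control 3 the fold change of SMC4 was -0.05. The ratio of NCAPG to SMC4 was 0.139, 0.138 and 0.144 in the SLCDS libraries, against 0.103, 0.094 and 0.116 in the controls, without overlap.

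FOXM1, the transcription factor that activates many of the genes above in G2, rose. FOXM1 had 6.37, 5.83 and 5.73 FPKM in the SLCDS libraries, against 2.68, 2.45 and 3.08 FPKM in the controls. Every SLCDS library lay well above every control (log2 fold change 0.90, SE 0.09, adjusted p = 0.00188). Without control 3 the fold change of FOXM1 was 0.97 (adjusted p = 9.46e-06).

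**Figure D3:**
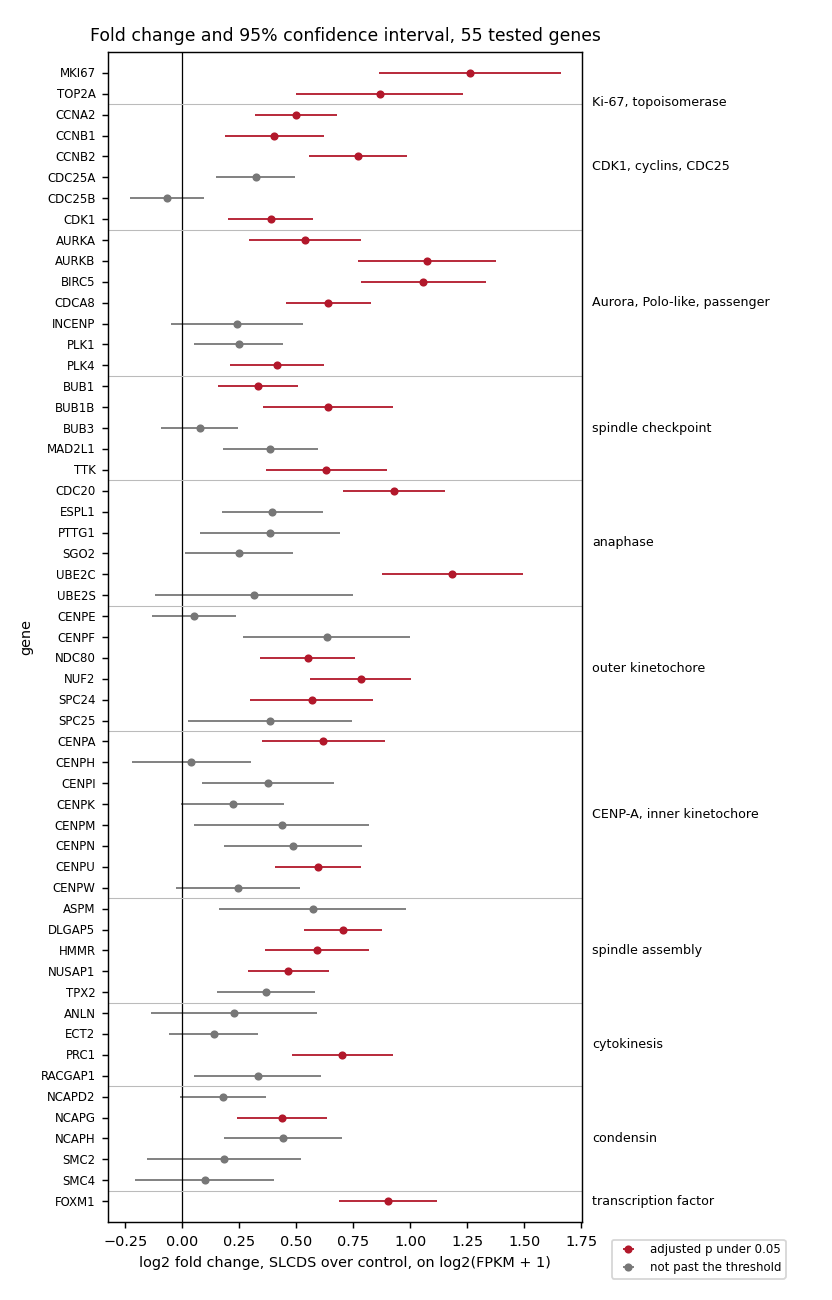
Log2 fold change of SLCDS over control (horizontal axis, log2(FPKM + 1)) for the 55 tested genes (vertical axis, by role), with limma's 95% confidence interval; red marks an adjusted p under 0.05 and grey the rest. MKI67, UBE2C, AURKB and BIRC5 lie above 1, and CDC25B is the only point below 0, where CENPE also lay under quantile normalization (-0.05).

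The size of the difference varied with abundance. In the 19 least abundant of the 57 genes the median ratio of mean FPKM was 1.67, in the 19 of middle abundance 1.62 and in the 19 most abundant 1.31. The Spearman correlation of the ratio with mean FPKM was -0.44 over the 57 genes, which share the same 6 libraries, and is given as a description. SMC4, CDC25B, UBE2S and BUB3, the most abundant members, had ratios of 1.06 for SMC4, 0.953 for CDC25B, 1.22 for UBE2S and 1.06 for BUB3. Without control 3 the ratio of UBE2S was 1.48, and the medians of the 3 abundance classes were 1.85, 1.63 and 1.32 from the least to the most abundant.

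The place of control replicate 3 among the controls followed transcript length. Its difference from the mean of the other controls correlated with the length of the longest protein-coding transcript at r = -0.74 (Pearson, log2 length) over the 57 genes, and at -0.72 over 11275 tested genes with a length. In the 19 shortest members (750 to 2315 nucleotides) control 3 was on median 0.25 higher on the log2 scale, and it was the highest control for 11 of them. In the 19 longest (3783 to 12678 nucleotides) it was on median lower (-0.186), and it was the lowest control for 18. Thus control 3 raised the control mean of short genes such as UBE2C, PTTG1, CENPA and AURKB, and lowered that of long genes such as MKI67, ASPM, CENPF and TOP2A. With each library's trend on length and GC content removed, 37 of the members were higher, where the background was 9.24% higher and 8.71% lower, and the 27 were all among them. Without control 3, MKI67 (1.06) and TOP2A (0.69) kept positive fold changes, and AURKB (1.20) and CENPA (0.74) had larger ones than with it. What sets control 3 apart was not tested.

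**Figure D4:**
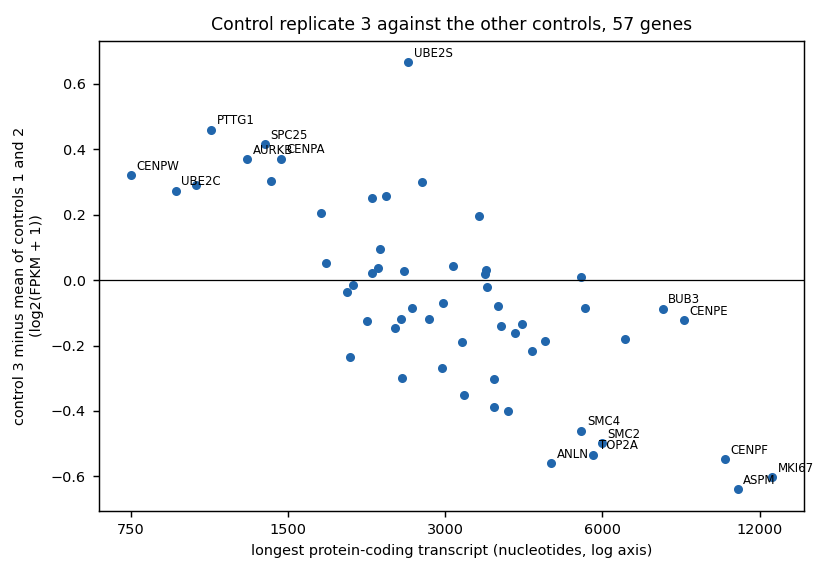
Difference of control 3 from the mean of controls 1 and 2 (vertical axis, log2(FPKM + 1)) against the length of the longest protein-coding transcript (horizontal log axis) for the 57 genes, 1 point each. Short genes lie mostly above 0 and long genes below it, with r = -0.74.

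Other lists of the division cycle, chosen with earlier results of these data known, were read in the same fit, where the same 4.28% of all tested genes were higher. Counts without control 3 stand against 16% of all tested genes. Of 12 tested mitotic kinesins 7 were higher, also without control 3, and their median log2 fold change was 0.46. Among them were KIF2C, which depolymerises microtubules at centromeres (log2 fold change 0.83, adjusted p = 0.00492), KIFC1, which focuses spindle poles (log2 fold change 0.76, adjusted p = 0.00905), and KIF18B (log2 fold change 0.76, adjusted p = 0.0111). Of 24 tested genes of replication licensing and S phase, 7 were higher (15 without control 3), among them RRM2, a ribonucleotide reductase subunit (log2 fold change 1.19, adjusted p = 0.00128), thymidylate synthase TYMS (log2 fold change 1.06, adjusted p = 0.00125) and thymidine kinase TK1 (log2 fold change 1.00, adjusted p = 0.00314). Of 24 further spindle and centrosome genes, 4 were higher (8 without control 3), including CEP55 (log2 fold change 0.74, adjusted p = 0.00611), GTSE1 (log2 fold change 0.72, adjusted p = 0.00365) and CDCA3 (log2 fold change 0.70, adjusted p = 0.0133). KIF2C, RRM2, TYMS, TK1, CEP55 and GTSE1 passed whichever library was left out. KIFC1 lost the call when any single SLCDS library was left out, KIF18B without SLCDS 1 or 3, and CDCA3 without SLCDS 2, control 1 or control 2 (adjusted p up to 0.0586, 0.0631 and 0.0756 in that order).

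Of 23 further kinetochore genes 4 were higher (6 without control 3), and the median of the 23 was 0.09. Among these 4 were ZWINT, which links the outer kinetochore to the checkpoint (log2 fold change 0.89, adjusted p = 0.00383), HJURP, the chaperone that loads CENP-A (log2 fold change 0.67, adjusted p = 0.0222), and SKA3 (log2 fold change 0.60, adjusted p = 0.0142). In 13 cohesin genes, the 2 that were higher were CDCA5, which encodes sororin (log2 fold change 0.77, adjusted p = 0.0286), and the acetyltransferase ESCO2 (log2 fold change 0.69, adjusted p = 0.0127), both of which secure cohesion in S phase. The 16 APC/C genes held 1 that was higher, its inhibitor FBXO5 (log2 fold change 0.44, adjusted p = 0.0156), and their median was -0.08. Of 13 MuvB and DREAM genes 1 was higher, MYBL2, which encodes B-MYB (log2 fold change 1.02, adjusted p = 0.00365). PKMYT1, which phosphorylates CDK1 and holds it inactive, was the 1 of 11 genes of mitotic entry control that was higher (log2 fold change 1.06, adjusted p = 0.00437). Without control 3, 2 of the 13 cohesin genes and 2 of the 13 MuvB and DREAM genes were higher. So were 2 of the 11 entry control genes (PKMYT1 and CDK7). These counts are near the 16% of all tested genes that were higher in that fit. Of the 16 APC/C genes, 1 was higher without control 3, which is below that share. Of the CDK inhibitors, 2 were higher without control 3. None of the 3 remaining condensin genes passed in limma, and none had an unadjusted p under 0.05. The most abundant of them were NCAPH2, with a mean of 18.7 FPKM in SLCDS cells and 20.6 FPKM in controls, and NCAPD3, with 11.2 FPKM in SLCDS cells and 9.76 FPKM in controls. Of 4 tested CDK inhibitors 1 was higher: CDKN1A, which encodes p21, averaged 17.2 ± 0.734 FPKM in SLCDS cells and 9.92 ± 1.08 FPKM in controls (SD, n = 3 each; adjusted p = 0.00393). ZWINT, MYBL2, PKMYT1 and CDKN1A passed whichever library was left out. With 1 library left out, the adjusted p reached 0.0794 for SKA3 (without SLCDS 1, SLCDS 3 or control 2 it did not pass), 0.099 for HJURP (SLCDS 1, SLCDS 2 or control 2), 0.138 for CDCA5 (any SLCDS library or control 1), 0.0756 for ESCO2 (any SLCDS library) and 0.107 for FBXO5 (any library other than control 3). No gene of these lists was lower in limma, whereas 5 of 143 had an unadjusted p under 0.05 in that direction, a level not counted over all tested genes. Without control 3, 7 were lower (CENPC, CENPT, ANAPC4, CDC26, STAG2, RBL2 and CEP192), where the background was 11.8%. With the trend on length and GC content removed, 4 were lower (CENPT, E2F5, RBL2 and HAUS4), where it was 8.71%. Of the genes of these lists that were higher, KNL1, SKA3, ESCO2, KIF14, CKAP2L and GTSE1 had no control library at 1 FPKM and passed the filter through their SLCDS libraries.

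**Figure D5:**
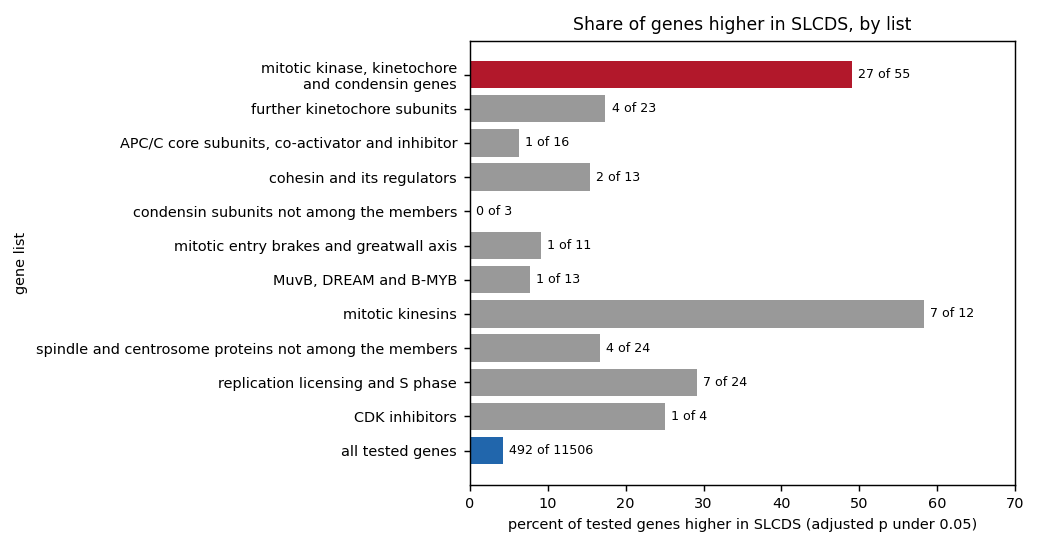
Percent of tested genes with an adjusted p under 0.05 and a higher level in SLCDS cells (horizontal axis) for each gene list (vertical axis), with counts beside the bars. The bar of the 57 genes stands at 27 of 55, mitotic kinesins at 7 of 12, and all tested genes at 492 of 11506.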

How the data were processed

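The 6 libraries, 3 of SLCDS cells and 3 of control cells, were analysed from FPKM values that the authors deposited, 1 file per library. Per the submitters' processing notes the genome builds were GRCm38 and mm10, which are mouse builds, while the labels say human; 16528 of 16832 symbols matched RefSeq human genes. No aligner, counter, strand setting or annotation was given in the sources used here, so reads of overlapping or antisense genes and of near-identical copies could not be told apart. No mitochondrially encoded gene was listed.

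The 11506 genes that reached 1 FPKM in at least 3 libraries entered a limma fit (version 3.58.1, R version 4.3.3) of log2(FPKM + 1) on group, with a trended variance prior, no covariate and p-values adjusted by Benjamini-Hochberg across them. The members and all lists were chosen with earlier results of these data known, so no test was run over a list. Values in every library are given for each tested member that did not pass, for the members with the largest and smallest change in each role and for 9 fixed genes, and up to 3 called genes of each other list are named; further values were added after they were seen. Transcript length and GC content came from GENCODE release 29. AURKA, UBE2C, BIRC5, FOXM1, BUB3, TTK, CENPM, CENPH, RACGAP1 and TPX2 had no promoter window. The fit was tested on simulated data with the same spread in every library. That simulation held no library that stands apart as control replicate 3 does, so it does not cover that case. No pair of libraries agreed within counting noise, so none was merged. The result of 1 marker list is not reported here.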

Additional observations from a re-analysis of the deposited data

How the results depend on the processing

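Under 19 other settings, 861 of 1010 combinations of member and setting kept direction and side of the threshold, 94 no longer passed, 48 newly passed and 7 changed sign. At a mean FPKM of at least 5, 20 members were tested, and only 7 of the 27 higher members were among them. Of these 7, 6 passed and CCNB1 did not. The 27 became 43 with array weights and 12 to 42 with 1 library left out. The lowest count came without SLCDS replicate 2 or 3 and the highest without control replicate 3. With no filter BUB1 and CCNB1 no longer passed, and on the TPM scale 18 members did, without TOP2A, CDK1, CCNA2, NUSAP1, BUB1, BUB1B, NCAPG, PLK4 and TTK. The median of 0.44 became 0.65 and 0.52 with pseudocounts of 0.1 and 0.5, 0.35 at a mean of at least 5 and 0.61 on the TPM scale, which moved the median of all genes by 0.03. Over all genes, the 492 higher and 209 lower became 196 and 128 at a mean of at least 5, where 8394 genes were tested. They became 1845 and 1432 with array weights, and 1042 and 982 after removal of the trend on length and GC content. They ran between 210 and 1838 higher and 66 and 1353 lower with 1 library left out, the highest without control replicate 3. Quantile normalization gave 326 lower.

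The sign changed for CENPE under quantile normalization (-0.051) and with the trend removed (-0.059), for SMC4 with array weights (-0.049) and without control replicate 3 (-0.055, the low end of a range up to 0.185 with 1 library left out), for BUB3 with the trend removed (-0.028), and for CENPH without SLCDS replicate 1 (-0.018) or control replicate 1 (-0.032, in a range up to 0.141). None of these passed under any of them, and the cause was not tested.

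Same-numbered libraries correlated in their deviations from the group mean at -0.326, 0.36 and 0.065. SLCDS replicate 2 gave 0.365 with control 1, 0.36 with control 2 and -0.406 with control 3. These values follow how control 3 stands apart, so they cannot decide whether the numbers pair the libraries. With the replicate block 20 members were higher, and over all genes 346 were higher and 109 lower. Depth limits CDC25C, SGO1, SPC25, CENPM and CENPW most, with 8 to 52 fragments per library.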
